A study of Mus musculus with 2 samples.

Results

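The 10 genes described here encode neuropeptides made in, or delivered to, the adrenal medulla: Npy, Penk, Adcyap1, Vip, Gal, Tac1, Nts, Adm, Calca and Sst. They are 10 of 21815 protein-coding genes of GENCODE M21 on mm10. The choice was by the peptides they encode, but it was made with earlier results of the present data known. DNase-seq cuts nuclear DNA where it is accessible, and a DNase I hypersensitive site (DHS) is a short stretch with an excess of cuts. The data came from whole adrenal glands of male B6CASTF1/J mice, hybrids of the C57BL/6J and CAST/EiJ strains, at 25 days of age, with 1 library from each of 2 animals, here replicate 1 and replicate 2. Both animals carry the same donor code in the labels but different animal numbers, and no treated or mutant group was analysed here. All values are therefore given for each library, without a test. The DHSs taken were those that touched the gene body or the 50 kb on either side in the longer of the 2 peak lists of each library. They were 70 of 130945 DHSs in replicate 1 and 85 of 157786 in replicate 2.

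Chromaffin cells of the medulla store neuropeptides in the same granules as catecholamines and release both when the splanchnic nerve fires. The genes of such peptides are typically switched on through cAMP and calcium signals, which reach DNA by way of CREB and AP-1 proteins. Some of these peptides are also carried into the gland by nerve fibres, whose nuclei lie outside it, and adrenomedullin is made by endothelial and cortical cells as well. A promoter DHS is here one within 1 kb of an annotated coding transcript's start, a gene with one is termed open, and the other DHSs in the window are distal unless they touch the promoter of a neighbouring gene. Height is the authors' signal value for a peak, and its scale is taken up with the processing below. Distances are given in bp from the 5′ end of the gene to the centre of a site, with the direction of transcription positive.

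The labelled tissue was checked against markers. All 6 cortical markers, among them Star and Nr5a1, were open in both libraries. Of the chromaffin cell markers, Th, Dbh, Chga, Chgb and Slc18a1 were open in both libraries, and Ddc and Pnmt had no promoter DHS in either. Slc18a1, a vesicular monoamine transporter gene, had the highest promoter signal of these, with 26.8 in replicate 1 and 19.1 in replicate 2, but that DHS also touched the promoter of Atp6v1b2. Chgb, a granule protein gene, had 13.3 in replicate 1 and 4.91 in replicate 2. Markers of sympathetic neurons were open in 4 of 4 cases and those of endothelium in 3 of 3, and none of the 2 kidney and 2 liver markers was open. Among all protein-coding genes 65.8% were open in both libraries, so an open marker says little about the tissue by itself. The cortical marker Mc2r and the endothelial markers Pecam1 and Cdh5 had no promoter DHS in either shorter list. Dbh and the neuronal markers Stmn2 and Prph had none in the shorter list of replicate 2. Whether nuclei of cells other than chromaffin cells gave the member DHSs was not tested. In whole glands, fewer cells of a type and less accessible chromatin per cell cannot be told apart.

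Sequences are shown first for the cAMP response element (CRE, TGACGTCA), since it is the textbook control element of several of these genes. Of the 10 genes, 9 were matched in the RefSeq promoter table for GRCm38.p6, which covers 250 bases before to 50 after the start of each gene. Penk was not matched. The complete CRE was found in 1 of the 9, Sst, the somatostatin gene, whose rat counterpart is where this element was first characterised, from -48 to -41, and in 2.42% of all 16498 promoters. Its shorter core CGTCA, searched on both strands and also contained in the complete element, was found in 7 of the 9 and in 24.4% of all promoters. Npy and Adm had none. Each core is shown with the bases around it. Capitals mark the core or complete element, and the number in parentheses is its first base relative to the RefSeq start.
Adcyap1 (-91), chr17:93198914-93198942, plus strand: ggactaggatgcTGACGtcttttactgat
Vip (-79), chr10:5639127-5639155, plus strand: ggatcactactgTGACGtctttcggggag
Gal (19), chr19:3414509-3414537, minus strand: gcgctgagccggTGACGcggcagctccca
Tac1 (-197), chr6:7554852-7554880, plus strand: tccctaaaattgCGTCAtttcgaacacaa
Tac1 (-43), chr6:7555006-7555034, plus strand: gctctacaggctCGTCAcgcctgagataa
Nts (-166), chr10:102490568-102490596, minus strand: attagggaagatCGTCActttccatcaag
Calca (-65), chr7:114636406-114636434, minus strand: gaagcacagaggTGACGcaatctgtctgg
Sst (-48), chr16:23890876-23890904, minus strand: cgcctccttggcTGACGTCAgagagagag
The Gal core, 19 to 23 bases after the start, lay inside the promoter DHS of both libraries and inside a footprint of replicate 1. A footprint is a short protected stretch within a DHS. The other 7 in these sequences, the complete Sst element included, lay outside every DHS of the longer lists.

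The second set shows the DHS sequences on which the results below turn. They are RefSeq GRCm38.p6 bases at the mm10 coordinates of the replicate 1 DHS, on the strand of the gene. Capitals mark the deposited footprints of replicate 1, and the Npy and Adm promoter sequences stop before the GENCODE start of the gene.
Npy promoter, chr6:49822621-49822709, plus strand: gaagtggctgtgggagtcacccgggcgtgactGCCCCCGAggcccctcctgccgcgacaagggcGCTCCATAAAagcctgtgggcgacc
Adm promoter, chr7:110627541-110627660, plus strand: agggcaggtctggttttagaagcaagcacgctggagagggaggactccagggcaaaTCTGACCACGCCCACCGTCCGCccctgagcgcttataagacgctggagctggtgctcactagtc
Adm 2685, chr7:110630261-110630440, plus strand: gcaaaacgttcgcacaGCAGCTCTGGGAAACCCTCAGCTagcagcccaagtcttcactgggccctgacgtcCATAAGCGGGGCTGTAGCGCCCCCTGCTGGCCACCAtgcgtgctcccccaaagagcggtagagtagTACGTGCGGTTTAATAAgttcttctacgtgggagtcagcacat
Sst -8088, chr16:23898961-23899140, minus strand: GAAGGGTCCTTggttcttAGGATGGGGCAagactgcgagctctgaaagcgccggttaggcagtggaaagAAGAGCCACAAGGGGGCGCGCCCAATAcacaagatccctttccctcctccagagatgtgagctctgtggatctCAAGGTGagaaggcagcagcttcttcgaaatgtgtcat
Sst -7468, chr16:23898341-23898520, minus strand: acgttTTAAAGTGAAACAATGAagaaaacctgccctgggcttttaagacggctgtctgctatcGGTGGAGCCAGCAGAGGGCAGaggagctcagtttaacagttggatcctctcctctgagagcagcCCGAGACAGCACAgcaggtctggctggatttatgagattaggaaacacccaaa
Sst intron, chr16:23890281-23890440, minus strand: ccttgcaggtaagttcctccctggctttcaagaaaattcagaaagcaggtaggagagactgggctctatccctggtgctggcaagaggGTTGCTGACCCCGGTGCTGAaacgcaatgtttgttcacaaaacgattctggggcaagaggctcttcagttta
Adcyap1 -40356, chr17:93158601-93158740, plus strand: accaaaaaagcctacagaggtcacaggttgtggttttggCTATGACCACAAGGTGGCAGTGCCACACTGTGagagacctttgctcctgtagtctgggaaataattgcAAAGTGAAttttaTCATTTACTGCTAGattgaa
Vip -5372, chr10:5633761-5633940, plus strand: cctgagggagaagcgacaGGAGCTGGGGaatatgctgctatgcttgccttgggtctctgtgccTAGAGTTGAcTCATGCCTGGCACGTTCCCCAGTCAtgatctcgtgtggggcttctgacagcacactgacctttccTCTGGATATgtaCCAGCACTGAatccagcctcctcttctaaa
In 4 of these, Adm 2685, Sst -8088, Sst -7468 and Adcyap1 -40356, the longest stretch of capitals surrounds or overlaps a match to the core of the CTCF motif, which is searched for further below.

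Promoters of the neuropeptide genes were usually open but low. A promoter DHS was present for 9 of the 10 in replicate 1 and 8 in replicate 2, with 8 open in both. Among all protein-coding genes 69.4% were open in replicate 1, 69.1% in replicate 2 and 65.8% in both. Heights were another matter: the median over open members was 1.35 in replicate 1 and 0.759 in replicate 2, against 8.85 and 6.25 over all open genes of the same libraries. Every member lay below those medians in both libraries. In the shorter lists, 8 members were open in replicate 1 and 3 in replicate 2, against 65.3% and 61.9% of all genes.

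**Figure D1:**
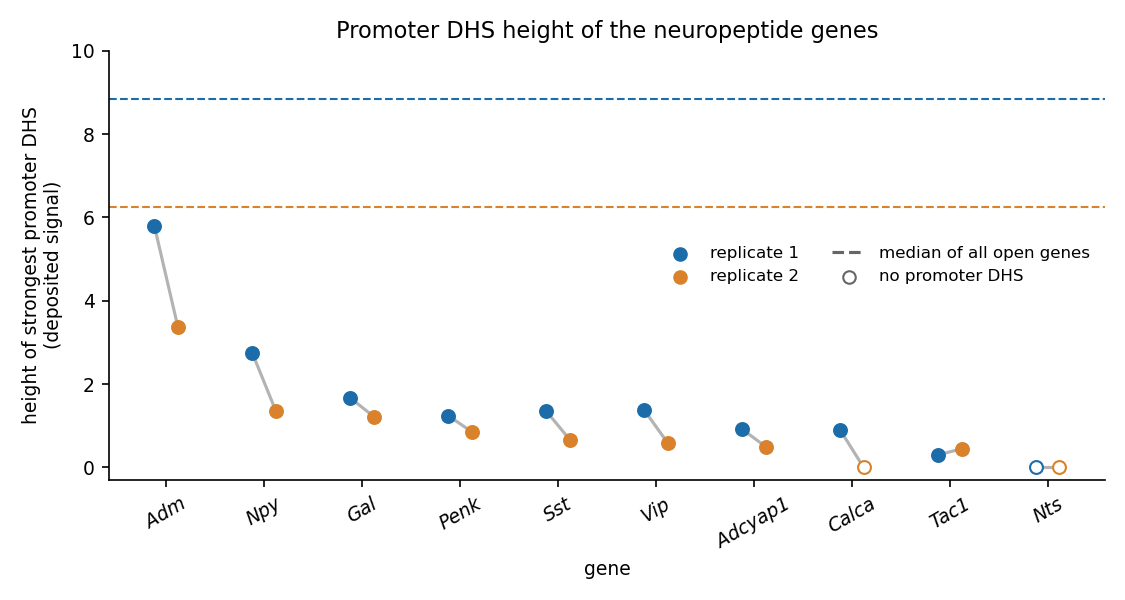
Height of the strongest promoter DHS (deposited signal, linear axis) of each gene in replicate 1 (blue) and replicate 2 (orange). Hollow points at 0 stand for genes with no promoter DHS, and dashed lines are the medians over all open genes, 8.85 in replicate 1 and 6.25 in replicate 2. Adm is the highest in both libraries and Nts has none in either.

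Among the peptides of chromaffin granules, Npy, the neuropeptide Y gene, had a promoter height of 2.74 in replicate 1 and 1.35 in replicate 2. Its DHS lay across the start, was in both shorter lists and held 3 footprints in each library. A weaker promoter DHS at -579, of height 0.675, was found in replicate 1 only. Penk encodes proenkephalin, the precursor of the enkephalins. Its promoter DHS had a height of 1.24 in replicate 1 and 0.853 in replicate 2, and a non-coding transcript, A830012C17Rik, also starts within 1 kb of it. Gal, the galanin gene, had 1.67 in replicate 1 and 1.22 in replicate 2, at a DHS over the first exon that was in both shorter lists. Npy, Gal and Adm were the only members whose promoter DHS was in the shorter list of both libraries.

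Adm, the gene of the vasodilator adrenomedullin, had the highest promoter of the 10, with 5.79 in replicate 1 and 3.37 in replicate 2. Even so, 35.9% of open genes were lower in replicate 1 and 32.7% in replicate 2, so that Adm stood in the lower part of the range. Its DHS had the same boundaries in both libraries, chr7:110627541-110627700, across the start. A second promoter DHS in the Adm intron, at 525, had a height of 1.58 in replicate 1 and 1.14 in replicate 2.

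Sst had its strongest promoter DHS at 602, in its intron, with 1.35 in replicate 1 and 0.666 in replicate 2. A DHS at 207, over the first exon, was found in replicate 1 only, with a height of 0.592. Vip encodes vasoactive intestinal peptide. Its promoter DHS lay at 108 over the first exon, with 1.37 in replicate 1 and 0.586 in replicate 2. In both genes the openness at the promoter was therefore downstream of the start, and neither DHS was in the shorter list of replicate 2.

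The other members had a low promoter DHS, one that was not shared, or none. Adcyap1 encodes PACAP, the peptide transmitter of the splanchnic nerve on chromaffin cells. It counted as open in both libraries, but at different sites: at -596 with a height of 0.917 in replicate 1, and at 914 in an intron with 0.497 in replicate 2. Tac1, the substance P precursor gene, had 0.300 in replicate 1 and 0.444 in replicate 2 at 315, and was the only member whose promoter DHS was missing from both shorter lists while shared between libraries. Calca, which encodes calcitonin and the vasodilator CGRP, had 0.900 at 646 and 0.342 at 41 in replicate 1. In replicate 2 Calca had no promoter DHS, and no stretch within 1 kb of its starts had a false discovery rate (FDR) of 0.05 or less. Nts, the neurotensin gene, had no promoter DHS and no such stretch in either library.

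The order by mean height over both libraries was Adm, Npy, Gal, Penk, Sst, Vip, Adcyap1, Calca, Tac1 and Nts. In each library Adm, Npy and Gal came first in that order, though Npy and Gal were close in replicate 2, at 1.35 and 1.22. Penk, Sst and Vip differed from each other by less in either library than each of them did between libraries. Their order is thus not resolved. The order also depends on the promoter window: within 2 kb the mean height of Penk was 3.32, above that of Npy at 2.05, and that of Nts 0.667, while within 500 bp Sst had 0.296 and Adcyap1 0.249. Tac1 was the only member with a shared promoter DHS that was higher in replicate 2.

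Windows of these genes held fewer DHSs than those of other genes. The median was 6.5 in replicate 1 and 8 in replicate 2, against 12 in either library over all genes. The members have few neighbours, with a median of 0.5 other protein-coding genes starting in the window against 2 over all genes. Among the 7760 genes with at most 1 such neighbour, a comparison chosen after the values were seen, the median was 9 in replicate 1 and 10 in replicate 2. Distal DHSs differed less, with a member median of 5 in replicate 1 and 6.5 in replicate 2. Over all genes that median was 7 in either library, and over those 7760 genes 6 in replicate 1 and 7 in replicate 2. Members are also shorter, with a median of 6.04 kb against 17.4 kb, and the gene body is part of the window. Summed height per window was 6.63 in replicate 1 and 4.33 in replicate 2 for the median member, against 35.9 and 25.9 for the median gene. Adm had the most DHSs, 15 in replicate 1 and 21 in replicate 2. Calca had 3 in replicate 1 and 1 in replicate 2, and Tac1 had 1 in replicate 1 and 9 in replicate 2.

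**Figure D2:**
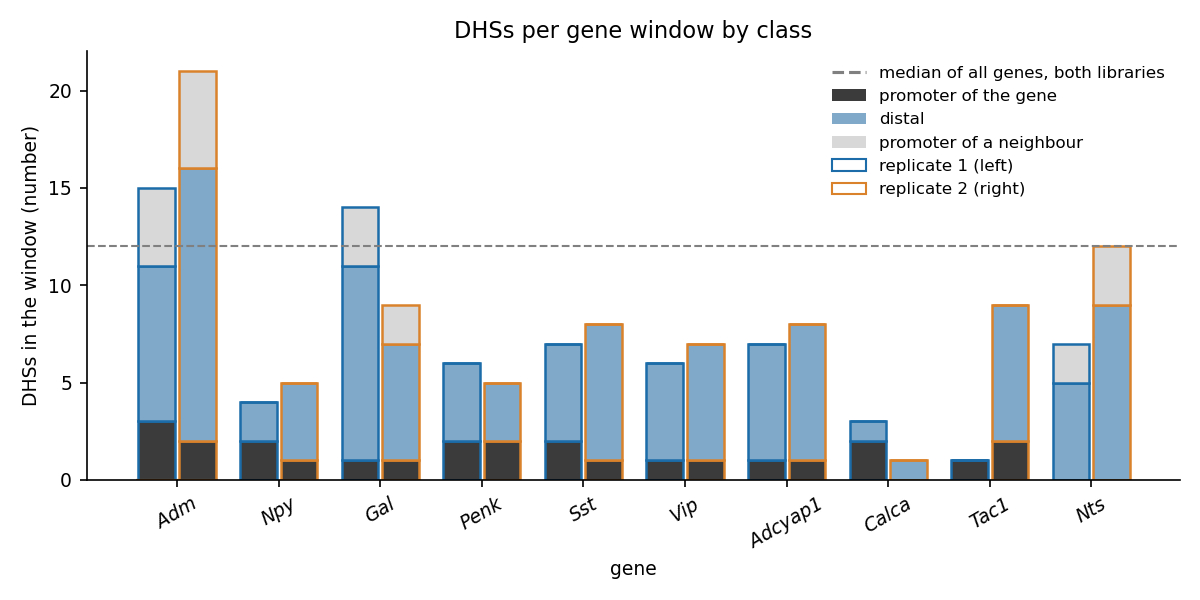
Number of DHSs in each gene window (linear axis from 0), with replicate 1 as the left bar and replicate 2 as the right bar, divided into promoter of the gene, distal and promoter of a neighbour. The dashed line is the median over all genes, 12 in each library. Adm lies above it in both libraries, and Gal only in replicate 1.

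**Figure D3:**
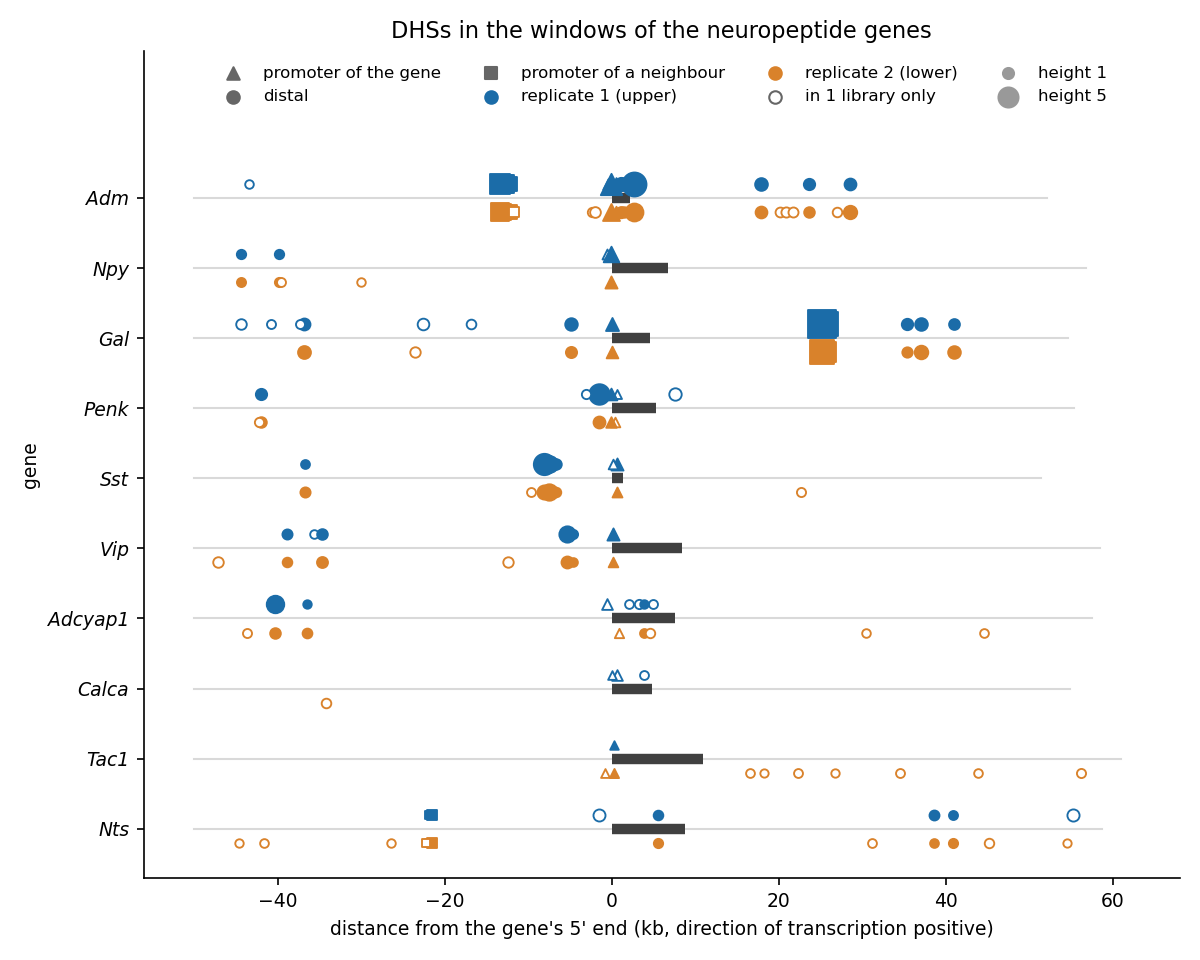
Position of every DHS (distance from the 5′ end in kb) in the 10 windows, replicate 1 above and replicate 2 below each line, with the gene body as a dark bar. Marker area grows with height and hollow markers are DHSs found in 1 library only. Filled sites lie in every window except that of Calca, with the most, 12, at Adm, while the distal sites of Tac1 and Calca are all hollow.

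The strongest distal site present in both libraries was higher than the promoter of the same gene in each library for Adm, Sst, Penk, Vip and Adcyap1. For Gal it was higher only in replicate 2, and Nts had such a site but no promoter DHS. The share of all genes with such a site was not computed. The comparison also sets the strongest of often several distal sites against few promoter DHSs. At Penk a DHS at -1472 (chr4:4140201-4140380), just outside the promoter window, had a height of 5.34 in replicate 1 and 1.30 in replicate 2. It was in both shorter lists and held 4 footprints in replicate 1. It exceeded the promoter DHS of the gene in both libraries, but its log2 ratio of replicate 1 to replicate 2, 2.04, was, with that of a site of Adcyap1, the largest of the 46 shared member sites. Another Penk site, at -41937, had 1.08 in replicate 1 and 0.879 in replicate 2.

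Sst had a cluster of 4 shared DHSs within 1.5 kb of each other upstream. They lay at -8088, -7468, -7198 and -6653. The heights at -8088 were 5.80 in replicate 1 and 2.12 in replicate 2. The heights at -7468 were 3.44 in replicate 1 and 3.14 in replicate 2, so that the higher of these neighbours differed between the libraries. At -7198 they were 1.77 in replicate 1 and 1.42 in replicate 2, and at -6653 they were 0.850 in replicate 1 and 0.560 in replicate 2. The first 3 were in both shorter lists. No other protein-coding gene starts at these sites, which are intergenic.

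At Adm the strongest distal DHS lay at 2685, past the 3′ end of the gene, with 7.52 in replicate 1 and 3.86 in replicate 2. Its height was above that of the Adm promoter in both libraries. Inside the gene, DHSs at 1120 and 1438 had 1.78 and 1.49 in replicate 1, and 0.986 and 0.844 in replicate 2. The Adm window also holds the promoter of Sbf2, a myotubularin-related gene, with 4 shared DHSs, the highest of which had 5.27 in replicate 1 and 4.29 in replicate 2.

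Vip had its strongest distal DHS at -5372 (chr10:5633761-5633940), with 3.07 in replicate 1 and 1.32 in replicate 2, in both shorter lists. A weaker one at -4653 had 0.467 in replicate 1 and 0.355 in replicate 2. At Adcyap1 the DHS at -40356 had 3.66 in replicate 1 and 0.888 in replicate 2. That site gave a log2 ratio of 2.04, while the site at -36422 gave -1.15, with 0.283 in replicate 1 and 0.631 in replicate 2. Sites of the same window thus differed between the libraries in opposite directions.

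**Figure D4:**
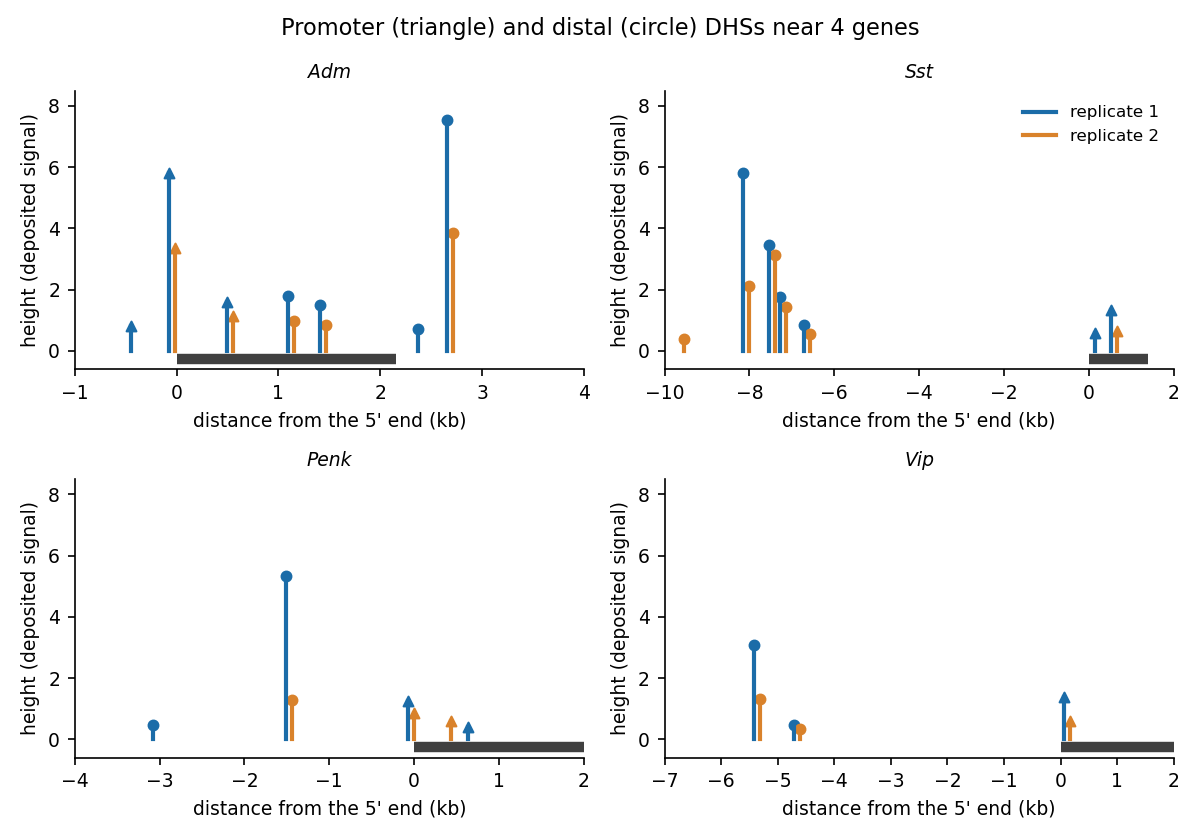
Height (deposited signal, linear axis) of promoter DHSs (triangles) and distal DHSs (circles) near Adm, Sst, Penk and Vip, by distance from the 5′ end in kb, with replicate 1 in blue, replicate 2 in orange and the gene as a dark bar. In each panel a distal site is higher than the promoter in both libraries: 7.52 and 3.86 at Adm, 5.80 and 2.12 at Sst, 5.34 and 1.30 at Penk, 3.07 and 1.32 at Vip, replicate 1 first. The share of all genes with such a site was not computed.

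Gal had its strongest distal DHS at 37013, inside an intron of Cpt1a, a gene of fatty acid oxidation, with 1.57 in replicate 1 and 1.91 in replicate 2. A site at -4902 had 1.52 in replicate 1 and 1.04 in replicate 2. The strongest DHSs of the Gal window belonged to the promoter of Tesmin, a neighbour expressed in testis. These had 10.8 and 7.85 in replicate 1, and 7.08 and 4.58 in replicate 2. Npy had only weak distal sites, the strongest at -39846 with 0.517 in replicate 1 and 0.480 in replicate 2.

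At Nts the strongest sites were found in replicate 1 only, at 55225 with a height of 1.37, within 1 kb of the start of the non-coding RNA gene Gm47101, and at -1485 with 1.33. The strongest Nts distal site in both libraries was at 5490, in an exon, with 0.592 in replicate 1 and 0.497 in replicate 2. The neighbouring Rassf9 promoter had 0.467 in replicate 1 and 0.560 in replicate 2 at -21454. Tac1 had no distal DHS in replicate 1 and 7 in replicate 2, of heights up to 0.444 at 56202. Calca had a site at 3879, of height 0.383, in replicate 1 only and a site at -34214, of height 0.577, in replicate 2 only.

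Of the 107 member sites, 46 were found in both libraries, 24 in replicate 1 only and 37 in replicate 2 only. By DHSs, 46 of 70 in replicate 1 (65.7%) and 48 of 85 in replicate 2 (56.5%) overlapped a DHS of the other library by at least 1 bp, against 62.2% and 51.8% of all DHSs. Higher DHSs were more often shared, among the members as among all DHSs: at or above the library median height, 30 of 34 member DHSs were shared in replicate 1 and 32 of 37 in replicate 2, against 88.3% and 84.1% of all such DHSs. Below the median, 16 of 36 member DHSs were shared in replicate 1 (44.4%) and 16 of 48 in replicate 2 (33.3%), against 36% and 19.5% of all such DHSs. The split by height was made after the values were seen. Of the replicate 1 only sites, 1 had a stretch with an FDR of 0.05 or less in replicate 2, and none of the replicate 2 only sites had one in replicate 1, against 9.23% and 6.77% of all such sites. In the shorter lists were 43 of the 70 DHSs of replicate 1 (61.4%) and 36 of the 85 of replicate 2 (42.4%), against 61.7% and 40.9% of all DHSs. Over all heights together, the shares of member DHSs that were shared or in the shorter list lay within 5 percentage points of those of all DHSs.

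**Figure D5:**
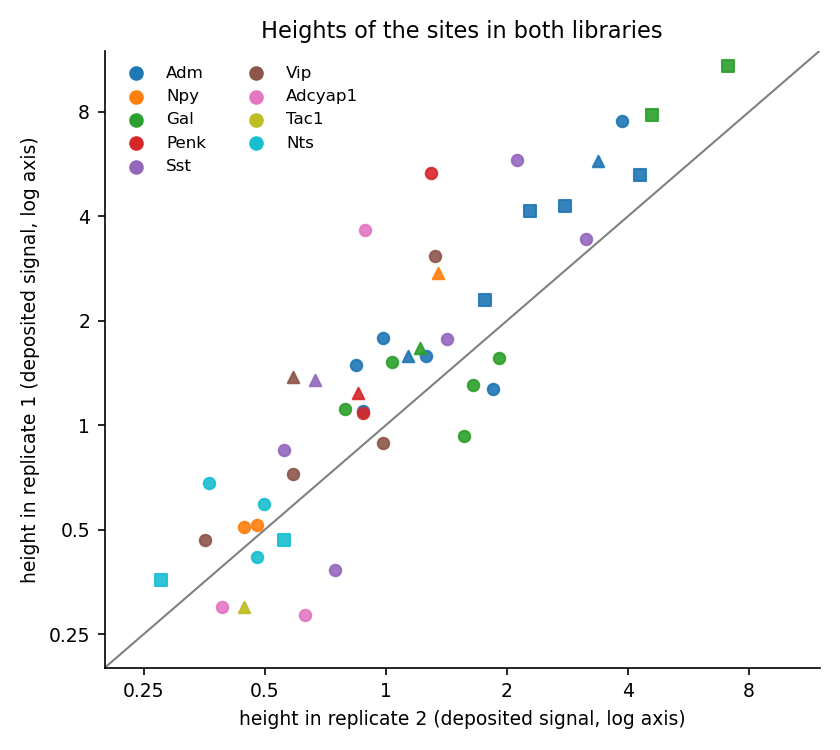
Heights of the 46 sites found in both libraries, replicate 1 against replicate 2, on log axes, coloured by gene, with triangles for promoters, circles for distal sites and squares for promoters of neighbours. The line marks equal height. Points above it, 35 of the 46, are higher in replicate 1, and the Penk and Adcyap1 circles at 5.34 and 3.66 lie farthest above.

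Over the 46 shared sites the median log2 ratio of replicate 1 to replicate 2 was 0.39 (SD 0.68 over sites), and 35 were higher in replicate 1. Over all 81485 DHSs of replicate 1 with a partner the median was 0.34 and 70.7% were higher in replicate 1. Of the 12 shared Adm sites, 11 were higher in replicate 1, as were all 3 of Npy and all 3 of Penk. Gal was divided, with 5 of 8, and the 3 Gal sites higher in replicate 2 were at 40971, 37013 and -36867, all distal. Scaled to the median height of shared DHSs, the members' median ratio was -0.029.

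Footprints were found wholly inside 62 of the 70 member DHSs of replicate 1 (88.6%) and 56 of the 85 of replicate 2 (65.9%), against 77.2% and 62.5% of all DHSs. Adm 2685 held the longest of the footprints examined, 36 bases in replicate 1 and 26 in replicate 2, the second lying within the first. In Adcyap1 -40356 a footprint of 32 bases in replicate 1 met footprints of 12 and 8 bases in replicate 2.

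After these sequences had been read, the 12-letter CTCF core was searched on both strands in every member site. CTCF is a protein that anchors chromatin loops and insulates neighbouring domains. The core was found in 9 of the 107 sites, at Adcyap1, Vip, Gal, Nts, Adm and Sst, all of them distal and 8 of them in both libraries. A footprint covered the whole core in 6 of them in replicate 1 and in 3 in replicate 2, and in Adm 2685 in both. In windows of 200 bases around the DHS centres, the core was present in 8 of 70 member DHSs of replicate 1 and 9 of 85 of replicate 2, against 7.21% and 4.52% of all DHSs. The strongest distal sites of Adcyap1, Adm and Sst were among the sites that held it, and those of Penk, Vip, Gal and Npy were not.

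At Vip -5372 an AP-1 site, searched as TGANTCA, was found as TGACTCA with 6 of its 7 bases in footprints of replicate 1. The same letters occurred in 13.0% of 200-base windows at all DHSs of replicate 1. AP-1 is the Fos and Jun dimer that responds to calcium and kinase signals. In the Vip promoter a TATA box, TATAAA, was found at -30 to -25 and at 2 other places, and 12.9% of all promoters held one.

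The left part of the element of REST, TTCAGCACC, was found in 2 of the 14 member DHS sequences examined, the promoter DHSs of Vip and Sst, against 0.527% of 200-base windows at all DHSs of replicate 1. REST silences neuronal genes in cells that are not neurons. The Sst match, on the other strand in the intron DHS shown above, had 8 of its 9 bases in a footprint of replicate 1. The Vip match lay in the first exon and ended just before a footprint of 18 bases in replicate 1, which contained a footprint of 8 bases in replicate 2. It is shown here from the match on, with the match in capitals.
Vip first exon, chr10:5639306-5639335, plus strand: TTCAGCACCctagacagctgccacgaagcc
A match to letters is a description of the sequence and does not show that the protein was bound.

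CpG content differed among the promoters. The ratio of observed to expected CpG was 0.552 in the median of the 9 matched members and 0.601 in the median of all 16498 promoters. Npy, Adcyap1, Tac1 and Sst had ratios of at least 0.6, a limit set after the values were seen, and all 4 were open in both libraries, beside 98.1% of such promoters in replicate 1 and 96.6% in replicate 2. Vip, Gal, Nts, Adm and Calca were below it, and 3 of these 5 were open in both and Calca in replicate 1 only. Of all genes below the limit, 44.0% were open in replicate 1 and 45.2% in replicate 2. The share open in both libraries was not computed for either class. The most open member, Adm, thus had a CpG-poor promoter, with a ratio of 0.383, while Tac1, with 1.01, had a promoter DHS of 0.300 in replicate 1 and 0.444 in replicate 2.

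Receptor genes for these peptides were open at 27 of 29 promoters in replicate 1 and 21 in replicate 2, with 20 in both, beside 69.4%, 69.1% and 65.8% of all genes. The highest were Sort1, a sorting receptor that binds neurotensin, with 9.04 in replicate 1 and 6.02 in replicate 2, and Vipr1, a receptor of VIP and PACAP, with 8 in replicate 1 and 4.57 in replicate 2. The Vipr1 DHS also touched the promoter of Lyzl4. Ntsr2, a neurotensin receptor, had 7.63 in replicate 1 and 3.24 in replicate 2. The promoters of Oprk1, Galr2, Galr3, Tacr1 and Ntsr1 were open in replicate 1 only, as were those of Sstr3 and Sstr5, and that of Calcr in replicate 2 only. Galr1 was open in neither. Sort1 and Ntsr2 were thus open in both libraries, while Nts itself was open in neither.

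Other neuropeptide genes were open at 23 of 42 promoters in replicate 1 and 18 in replicate 2, with 17 in both, shares below those of all genes. Vgf, a granin-like peptide precursor, had 17.9 in replicate 1 and 8.36 in replicate 2. Agrp had 12.4 in replicate 1 and 10.8 in replicate 2, at a DHS that also touched the promoter of Ctcf, and Hcrt, the orexin gene, had 10.7 in replicate 1 and 4.97 in replicate 2. All 3 were higher than Adm in both libraries. Pdyn, Ucn, Grp, Oxt, Pyy and Sct were open in replicate 1 only and Ucn3 in replicate 2 only.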

How the data were processed

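DNase-seq of 2 adrenal gland libraries, 1 per animal, was analysed. Peak heights are deposited signal values in the narrowPeak layout, per the file headers, made from each library's own mm10 alignments without pooling. Heights fell on whole multiples of a library's own step (tolerance 0.01 of it), which was 0.00833 for replicate 1 and 0.00888 for replicate 2. Taken as CPM steps, these correspond to totals of 120 M and 112.6 M, which no file states. The deposited FDR lists give q-values of at most 0.05, and footprints all carry a deposited FDR of 0.01. The caller, the aligner, their versions and the filters were not given in the sources used here. Reads of a hybrid genome were placed on mm10. Counting error was not given as an interval. Heights, not counts, were deposited, and counts would rest on the unstated reading of the steps as CPM.

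The members and lists were chosen with earlier results of these data known. GENCODE M21 genes and their starts were used, and the mm10 chromosomes matched the RefSeq assembly in 21 of 21 cases, with 0 peaks past an end. Among the matched members, the RefSeq promoter start differed from the GENCODE gene start for Tac1, Nts, Adm and Sst. Overlap needed 1 bp. All 10 members are named. Of the receptor and other neuropeptide lists, the 3 highest and up to 6 genes open in 1 library are named by rule, and Sstr3, Sstr5, Galr1 and Sct were named after their values were seen. One marker gene is not reported here. The strongest distal site of each member is named, and the second Sst site was shown after its values were seen. Python 3.11.15, numpy 2.4.6, pysam 0.24.0 and matplotlib 3.10.9 were used. On simulated peaks the promoter, sharing and window steps were correct for 60 of 60 genes each. Alternatives were other windows, the shorter lists, a stricter overlap, other height scales, and each replicate left out.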

Additional observations from a re-analysis of the deposited data

How the results depend on the processing

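The number of members open in both libraries was 8 and stayed between 6 and 8 under promoter windows of 500 bp and 2 kb and the 5′ end alone, but was 3 in the shorter lists. The median DHS count per window, 7 over both libraries, was 4.25 with 25 kb on either side, 11 with 100 kb and 3.5 in the shorter lists. The distal count, which in this section includes DHSs at promoters of neighbours, was 5.75, and 3, 9.75 and 3 under these settings. Receptor genes open in both were 20, and 12 in the shorter lists. Other neuropeptide genes were 17, and 10 in the shorter lists. The median log2 height ratio, 0.39, was 0.55 with 25 kb, 0.51 in the shorter lists, -0.029 when scaled to the median of shared DHSs and -0.0092 when scaled to summed height, so its sign depends on the scale. The CRE core CGTCA was in 7 of 9 promoters, and in 2 promoter DHSs of replicate 1. Sharing, presence in the shorter list, footprints and the median promoter height over members moved by less than the spread between replicates under every alternative run. That spread is the SD of the 2 replicate values. Leaving out 1 replicate could therefore not exceed it for presence in the shorter list and footprints. For the median promoter height it could hardly do so, and these settings show nothing about stability. Heights of single members moved further: Penk, 1.05 as a mean over libraries, was 3.32 within 2 kb and 0.621 in the shorter lists, Sst was 0.296 and Adcyap1 0.249 within 500 bp, Nts was 0.667 within 2 kb, and Tac1 had no promoter DHS in the shorter lists. With either replicate left out, the open members were 8 to 9 and the DHS count 6.5 to 8. The distal count, promoters of neighbours included, was then 5 to 7, the receptors 21 to 27 and the other neuropeptide genes 18 to 23. The median promoter height over members was 0.626 to 1.30, presence in the shorter list 42.4% to 61.4% and footprints 65.9% to 88.6%. No paired analysis was possible because the series has a single group. Whether depth or the peak threshold bears on the low sites found in 1 library was not tested, and 2 animals give no error beyond their 2 values.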

Other observations

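Repeats were rare at the member sites. None of the 70 member DHSs of replicate 1 and 5 of the 85 of replicate 2 lay mostly in repeats, against 5.55% and 11.1% of all DHSs, a count made after the sites were known. GATA motifs, searched as AGATAA, were present in the promoters of Tac1, Nts and Calca, against 9.70% of all promoters. These are the 3 members with the lowest mean promoter heights. That pairing was not planned, several motifs were searched, and a link was not tested. The same letters were in the distal DHS of Npy at -39846, against 6.39% of 200-base windows at all DHSs of replicate 1. No promoter of the 9 matched members held the SF-1 motif AAGGTCA, found in 3.92% of all promoters, which is bound by the product of the cortical marker gene Nr5a1. At so low a share, its absence from 9 promoters says little. The motif was found in the distal DHSs of Vip at -5372 and Nts at 5490. Of 200-base windows at all DHSs of replicate 1, 6.23% held it.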
